A study of Mus musculus with 16 samples.

Results

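Described here are 9 mouse genes of glutamine transport, glutamate reception and arginine sensing, out of 35682 genes in the deposited table, in ventricular myocytes from hearts under pressure overload. They were chosen by symbol: the glutamine transporters Slc38a3, Slc38a1, Slc38a2 and Slc1a5, the 2 subunits Slc7a5 and Slc3a2 of an amino acid exchanger, the glutamine-making enzyme Glul, the glutamate receptor subunit Grin2c, and Castor2 of the arginine-sensing machinery. The choice was made with the difference between genotypes already known for these genes, so every value of that difference is a description of them and supports nothing further. The 8 WT animals were littermates of the 8 B3AR-Tg animals they were compared with, a line named for the beta-3 adrenergic receptor. All 16 mice had been operated on 9 weeks earlier by TAC (transverse aortic constriction, in which a tie around the aorta loads the left ventricle), and no group without surgery was analysed here. The promoter and species of the transgene, and the age and sex of the mice, are not given in the sources used here.

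Glutamine is the most abundant free amino acid of plasma. Carriers of the SLC38 family move it with sodium: Slc38a3 (SNAT3, a system N carrier) exchanges protons and can run in either direction, while Slc38a1 and Slc38a2 (SNAT1 and SNAT2, system A carriers) take it up. Slc1a5 (ASCT2) swaps neutral amino acids, and the light chain Slc7a5 (LAT1) with the heavy chain Slc3a2 (CD98) exchanges glutamine for leucine and other large neutral amino acids. Glul, glutamine synthetase, joins ammonia to glutamate. Grin2c encodes GluN2C, a glutamate-binding subunit of NMDA receptor channels, which need the common subunit Grin1. Castor2 is the partner of the arginine sensor Castor1, and both bind GATOR2, an activator of the growth kinase complex mTORC1.

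Promoter windows were looked up because Grin2c and Castor2 were both higher in B3AR-Tg. RefSeq windows on GRCm38.p6 were used for 5 of the 9 genes, Glul, Castor2, Grin2c, Slc38a2 and Slc3a2. No window was at hand for Slc38a3, Slc38a1, Slc1a5 and Slc7a5. The 250 bases before the annotated start of Grin2c (chr11:115267244-115267493, minus strand) and of Castor2 (chr5:134099498-134099747, plus strand) are shown 5′ to 3′, with capitals for any match to the motifs searched on both strands.
Grin2c: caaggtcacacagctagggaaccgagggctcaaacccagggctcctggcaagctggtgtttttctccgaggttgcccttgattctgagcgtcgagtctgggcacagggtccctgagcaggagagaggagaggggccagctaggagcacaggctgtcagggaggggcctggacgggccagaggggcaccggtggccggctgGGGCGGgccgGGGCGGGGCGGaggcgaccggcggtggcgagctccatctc
Castor2: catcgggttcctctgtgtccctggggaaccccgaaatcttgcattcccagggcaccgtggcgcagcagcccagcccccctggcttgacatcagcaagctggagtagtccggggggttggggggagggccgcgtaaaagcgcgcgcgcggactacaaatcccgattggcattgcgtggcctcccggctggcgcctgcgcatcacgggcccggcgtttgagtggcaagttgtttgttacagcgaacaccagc
The Grin2c window held 3 matches to the GC box GGGCGG, of which 2 overlapped, and the Castor2 window held 0. Of 32851 such windows of the same length in the mouse genome, 32.7% held at least 1 GC box. Neither window held the cAMP response element TGACGTCA (in 1.55% of windows), its TGACG part (17.8%, which overlaps the full element), the amino acid response core TGATGNAA (3.45%), the E-box CACGTG (6.02%) or the estrogen-related receptor element TNAAGGTCA (1.14%). The Grin2c window opens with all but the first base of TNAAGGTCA, so a match across its edge was not decided. GC content was 68.8% in the Grin2c window and 64.8% in the Castor2 window, against a median of 52.4% over all windows. Glul, Slc38a2 and Slc3a2, which did not differ between genotypes at the threshold used below, held 1 GC box each. GC content of their windows was 64.8%, 72.0% and 53.6%. Of the other motifs they held only 1 TGACG, in the Slc38a2 window.

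Library totals ranged from 5985335 to 14365864 counts. The myocyte markers of the marker list (12 of 12, from Myh6 to Nkx2-5) were detected and 1 of them, Ryr2, was higher in B3AR-Tg, with summed levels of 72327 to 95075 CPM in WT against 77699 to 115006 CPM in B3AR-Tg (CPM, the count relative to library size, scaled by TMM factors that correct for library composition). Fibroblast markers were lower in B3AR-Tg, where 4 of 8 tested fell and their sum was 28.0 to 105 CPM against 75.2 to 188 CPM in WT. Of 10 endothelial markers 2 fell (sums of 61.5 to 238 CPM against 147 to 194 in WT), and of 7 tested mural markers 1 rose (499 to 656 CPM against 365 to 555). The score of other-cell markers used below, a mean z-score of 27 genes of these cells and leukocytes, was 0.0496 to 0.987 in WT and −1.81 to 0.520 in B3AR-Tg, so it differed with genotype. Leukocyte markers (Cd3e at 0 in every library) summed to at most 15.1 CPM, markers of neurons and glia to at most 13.95 CPM and adipocyte markers (Retn at 0) to at most 1.91 CPM. All 5 load markers (Nppa, Nppb, Myh7, Acta1 and Ankrd1) were lower in B3AR-Tg, with sums of 1920 to 6506 CPM against 4805 to 18137 in WT. In such bulk RNA, fewer cells of a type and less RNA per cell cannot be told apart, and the part of other cells and of load in the differences below was not tested except where a value is given.

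Genes were compared between genotypes with edgeR's quasi-likelihood F test, adjusted by Benjamini-Hochberg over the 10945 genes that passed a filter on low counts. Of the 9 genes, 8 passed the filter and Slc1a5 did not. Slc38a3, Castor2 and Grin2c were higher in B3AR-Tg at an adjusted p under 0.05, and 0 of the 8 tested were lower. Over all tested genes 4.91% passed in either direction, 2.03% higher and 2.88% lower, and nothing is read from the share of these 9 because the contrast chose them. The median log2 fold change of the 8 was 0.12, and that of all tested genes 0.0060.

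**Figure D1:**
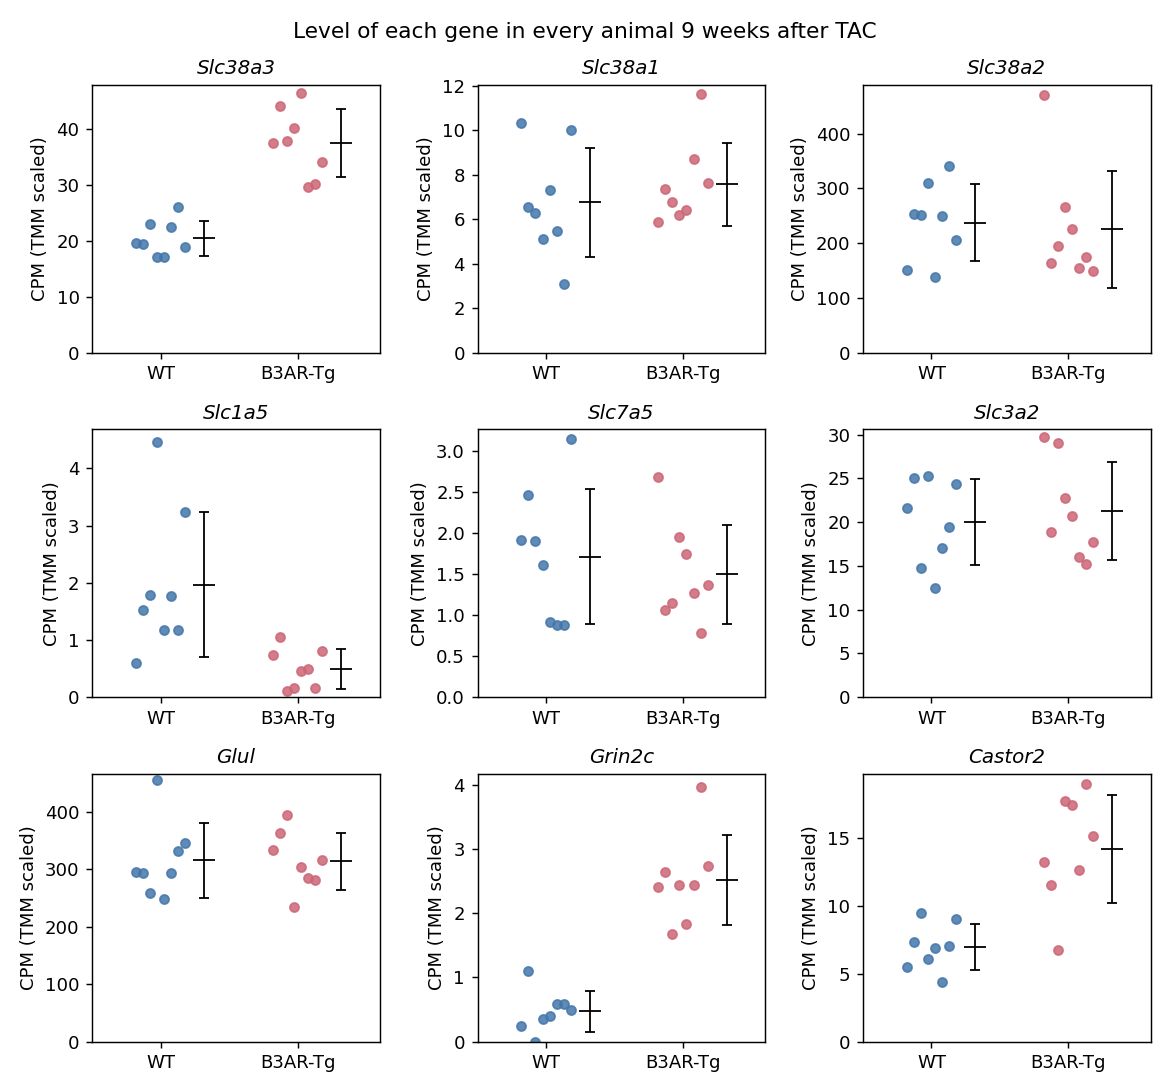
Level of each of the 9 genes in CPM (y axes, linear, each starting at 0) in every animal, WT in blue and B3AR-Tg in red, with mean and SD over 8 animals in black. Slc38a3 and Grin2c show no overlap between genotypes, Castor2 overlaps through 1 B3AR-Tg animal, Slc1a5 has 5 of 8 B3AR-Tg animals below every WT animal, and the other 5 genes overlap broadly.

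Slc38a3 (ENSMUSG00000010064, chromosome 9), the system N glutamine carrier, was at 17.1 to 26.1 CPM in WT (median 19.5) and 29.6 to 46.4 CPM in B3AR-Tg (median 37.7). The lowest B3AR-Tg animal was above the highest WT animal. Across all genes tested, 0.201% had every B3AR-Tg animal above every WT animal. The mean rose from 20.4 ± 3.15 to 37.5 ± 6.02 CPM (SD, n = 8 each), a log2 fold change of 0.88 (standard error, SE, 0.11, edgeR adjusted p = 0.000355), the third smallest p-value of the table. With a covariate for the level of other-cell markers it was 0.79 (adjusted p = 0.0212).

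Its relatives of the SLC38 family did not pass. Slc38a1 (ENSMUSG00000023169, chromosome 15) was at 3.07 to 10.3 CPM in WT (median 6.42) and 5.89 to 11.6 CPM in B3AR-Tg (median 7.06), groups that overlapped for most animals (log2 fold change 0.16, SE 0.20, edgeR adjusted p = 0.714). Slc38a2 (ENSMUSG00000022462, chromosome 15) was the most counted SLC38 gene, at 138 to 342 CPM in WT (median 250.3) and 150 to 472 CPM in B3AR-Tg (median 184). Only 2 of 8 B3AR-Tg animals were above the WT median, but B3AR-Tg replicate 1 was above every other animal at 472 CPM. The log2 fold change of Slc38a2 was −0.08 (SE 0.22, edgeR adjusted p = 0.894), and without that animal it was −0.32 (adjusted p = 0.344). Per kilobase of transcript, Slc38a3 made up 11.6% ± 2.66 of the summed level of the 3 genes in WT (7.45% to 15.6%) and 20.9% ± 5.16 in B3AR-Tg (10.4% to 27.8%), and B3AR-Tg replicate 1 had the lowest share of its group.

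Slc1a5 (ENSMUSG00000001918, chromosome 7), the neutral amino acid exchanger, was close to the limit of detection. WT libraries held 5 to 50 counts of it (median 13.5), and B3AR-Tg libraries 1 to 12 (median 5), of which 3 held no more than 3 counts, taken as the floor. The floor lay between 0.201 and 0.487 CPM across libraries and covers counting error only. Its level was 1.97 ± 1.27 CPM in WT against 0.496 ± 0.349 CPM in B3AR-Tg, and 5 of 8 B3AR-Tg animals were below the lowest WT animal. The low-count filter removed Slc1a5, so it was not tested with the others. Fitted with no low-count filter, it had a log2 fold change of −1.91 (SE 0.44, edgeR adjusted p = 0.0160). A filter of at least 1 CPM in 8 libraries kept it through 7 WT libraries and 1 B3AR-Tg library, so mainly through the group where it is high, and gave −1.93 (adjusted p = 0.0143). Fibroblast markers were lower in the same animals, with the sums given above. A relation of Slc1a5 with fibroblast markers alone was not tested, since the score used next pools them with endothelial, mural and leukocyte markers. Within a genotype, Slc1a5 had a Pearson r with the other-cell marker score of −0.11 in WT (exact permutation p = 0.798, Spearman rho −0.05). The value among B3AR-Tg animals was −0.50 (exact permutation p = 0.210, rho −0.19), and 0.24 without the 2 animals farthest from the median score.

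The 2 subunits of the LAT1 exchanger did not pass. Slc7a5 (ENSMUSG00000040010, chromosome 8), the light chain that carries the amino acid, was low at 0.878 to 3.14 CPM in WT (median 1.75) and 0.779 to 2.68 CPM in B3AR-Tg (median 1.32), with a log2 fold change of −0.23 (SE 0.31, edgeR adjusted p = 0.735). Slc3a2 (ENSMUSG00000010095, chromosome 19), the heavy chain that brings light chains to the membrane, was at 12.4 to 25.3 CPM in WT (median 20.5) and 15.2 to 29.7 CPM in B3AR-Tg (median 19.8), with a log2 fold change of 0.08 (SE 0.16, edgeR adjusted p = 0.835). The groups overlapped for both genes.

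Glul (ENSMUSG00000026473, chromosome 1) was the most counted of the 9 genes. It was at 248 to 455 CPM in WT (median 295) and 235 to 394 CPM in B3AR-Tg (median 310), with group means of 315 ± 65.1 and 314 ± 49.7 CPM. The log2 fold change was −0.0049 (SE 0.12, edgeR adjusted p = 0.991). The near-identical copies Glns-ps1 (96.8% identity over 1126 bases) and Gm4949 (93.0% over 1122 bases) held 0.263% and 0.00785% as many counts as Glul. For the other 8 genes no other transcript matched at 90% identity over 200 bases.

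Grin2c (ENSMUSG00000020734, chromosome 11), the NMDA receptor subunit, had 0 to 13 counts per WT library (median 4), of which 3 held no more than 3, and 15 to 51 counts per B3AR-Tg library (median 27.5). In CPM these were 0 to 1.10 in WT (median 0.442) and 1.67 to 3.97 in B3AR-Tg (median 2.44), and every B3AR-Tg animal was above every WT animal. The gene passed the low-count filter only through its B3AR-Tg libraries. Grin2c had a mean of 0.470 ± 0.321 CPM in WT against 2.52 ± 0.695 in B3AR-Tg, giving a log2 fold change of 2.36 (SE 0.35, edgeR adjusted p = 0.00141). With the other-cell covariate it was 2.62 (adjusted p = 0.0147), and summed markers of neurons and glia overlapped between genotypes, at 4.24 to 13.95 CPM among WT and from 5.69 to 12.8 among B3AR-Tg animals.

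The other NMDA receptor subunits were at or near the floor. Grin1, the subunit that every NMDA receptor channel contains, had 0 to 4 counts in WT and 0 to 3 in B3AR-Tg, with a median of 0 in both. Of the 6 other subunits, 0 passed the low-count filter, and Grin3a had 0 counts in every library. Highest among them was Grin2b, with 18 counts in 1 B3AR-Tg library against a group median of 0.5. Median counts in WT and B3AR-Tg, not scaled for library size, were 0 and 2.5 for Grin2a, 1 and 2 for Grin2d, and 0.5 and 3 for Grin3b. A difference between genotypes in these subunits was not detectable at this depth.

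Castor2 (ENSMUSG00000015944, chromosome 5) was at 4.41 to 9.49 CPM in WT (median 6.98) and 6.79 to 19.0 CPM in B3AR-Tg (median 14.2). In B3AR-Tg 7 of 8 animals were above the highest WT animal, and replicate 3, at 6.79 CPM, was below the WT median. The mean of Castor2 was 6.97 ± 1.70 CPM in WT against 14.2 ± 4.00 in B3AR-Tg, giving a log2 fold change of 1.02 (SE 0.18, edgeR adjusted p = 0.00488). With the other-cell covariate it was 1.26 (adjusted p = 0.0187). Castor1, the partner that binds arginine, was near the floor with 0 to 10 counts in WT (median 3.5) and 1 to 5 in B3AR-Tg (median 1.5), and did not pass the filter.

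The rest of these pathways was described from 5 lists of other genes, written with earlier results of these data known. Of their 133 tested genes, 6 were higher and 4 lower in B3AR-Tg at an adjusted p under 0.05 (7.52%, against 4.91% of all tested genes), with a median log2 fold change of 0.01 against 0.0060. The list of amino acid transporters, which also holds carriers of taurine and of nucleobases, had 28 tested genes. Of these, 3 rose and 2 fell (17.9%, against 4.91% of all tested genes, median 0.06). Nothing is read from that share, as the list was written with earlier results known. Slc7a1, a carrier of arginine and lysine, rose to 45.9 ± 11.5 CPM from a WT mean of 27.7 ± 6.47 (log2 fold change 0.72, SE 0.16, edgeR adjusted p = 0.0131). Slc25a12, the mitochondrial aspartate and glutamate carrier, rose by 0.32 (adjusted p = 0.0228) and Slc16a10, a carrier of aromatic amino acids, by 0.47 (adjusted p = 0.0400). Slc6a6, the taurine transporter, fell to 47.9 ± 8.23 CPM from a WT mean of 93.0 ± 51.0 (log2 fold change −0.96, adjusted p = 0.0207), and Slc43a3, which carries nucleobases, fell by 0.87 (adjusted p = 0.0310). Slc38a9, the lysosomal arginine-sensing transporter, was at 10.2 ± 1.94 and 11.8 ± 1.42 CPM (adjusted p = 0.354), Slc1a4 at 1.40 ± 0.576 and 0.774 ± 0.701 CPM (adjusted p = 0.338), and Slc7a8 had at most 5 counts in any library.

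**Figure D2:**
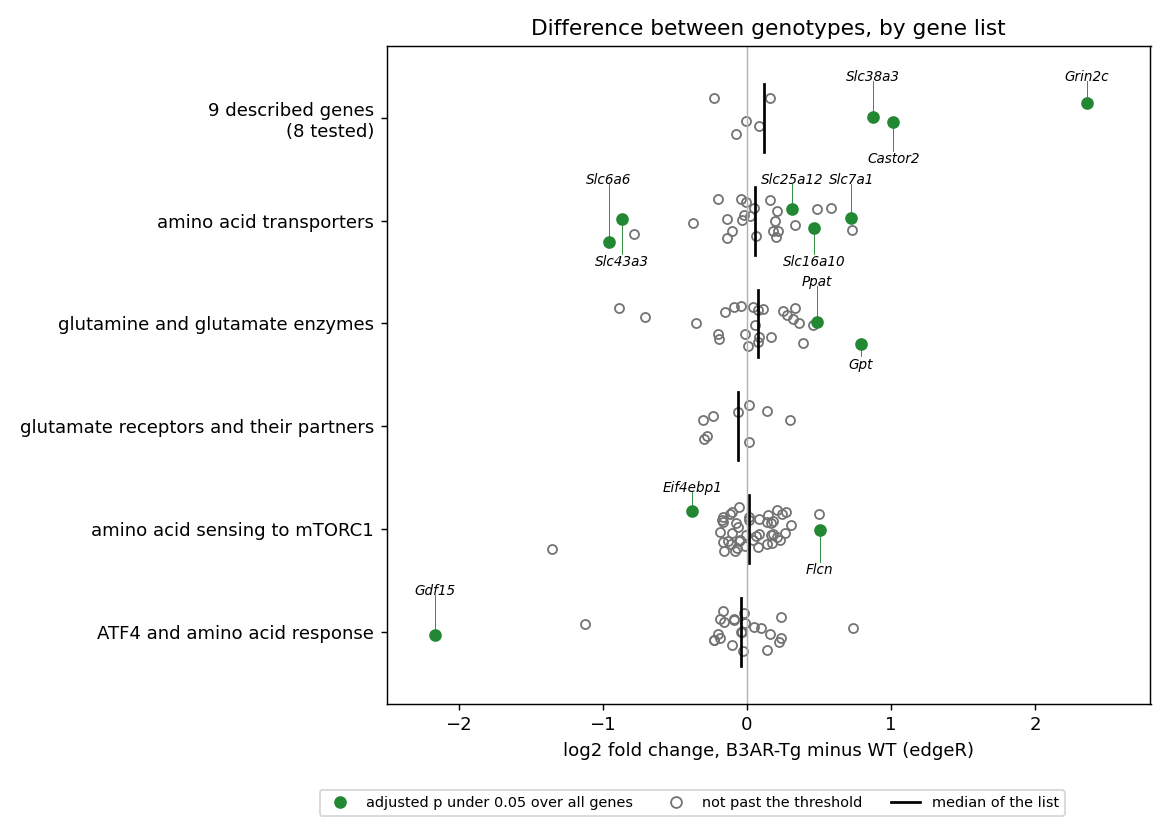
Log2 fold change, B3AR-Tg minus WT (x axis), for each tested gene of 6 lists (rows, points spread vertically for legibility), filled green where the edgeR adjusted p over all genes was under 0.05, with the list's median as a black bar. The medians lie between −0.06 and 0.12, and Grin2c at 2.36 and Gdf15 at −2.16 lie furthest from 0 among the genes past the threshold.

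Among 26 tested enzymes of glutamine and glutamate use, 2 rose and 0 fell (7.69%, against 4.91% of all tested genes, median 0.08). Gpt, an alanine aminotransferase that makes glutamate, rose to 34.5 ± 6.94 CPM from a WT mean of 20.1 ± 5.21 (log2 fold change 0.79, SE 0.15, edgeR adjusted p = 0.00507). Ppat, which spends glutamine in the opening step of purine synthesis, rose to 40.1 ± 6.95 CPM from a WT mean of 28.7 ± 3.62 (0.49, adjusted p = 0.0137). Glud1, which turns glutamate into ketoglutarate, was at 95.3 ± 8.46 and 94.1 ± 6.31 CPM in WT and B3AR-Tg (adjusted p = 0.932), and Asns, which makes asparagine from glutamine and had 1 to 21 counts per library, was not tested.

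Of 39 glutamate receptor genes and partners 9 were tested and 0 passed by edgeR (0%, against 4.91% of all tested genes). An unadjusted edgeR p under 0.05 was found for 1 of them. By DESeq2 0 passed and by limma voom 1, where 804 and 706 genes passed over all. Nothing is read from 0 or 1 of so few genes. With no low-count filter edgeR called 1, Grip1, in a fit where 475 genes passed over all. Grip1, a scaffold protein of glutamate receptors, was at 2.01 ± 1.47 CPM in WT against 0.261 ± 0.416 in B3AR-Tg. Its log2 fold change was −2.82 (edgeR adjusted p = 0.0102), and it was singled out after its values were seen. In B3AR-Tg 6 of 8 animals were below the lowest WT animal, and a share over all genes was not counted for this. Of the 25 other receptor genes, 10 had at most 3 counts in every library. Grina was at 30.8 ± 4.09 and 29.4 ± 3.52 CPM (adjusted p = 0.756).

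Among 46 tested genes of amino acid sensing and mTORC1, 1 rose and 1 fell (4.35%, against 4.91% of all tested genes, median 0.02). Flcn, folliculin, which acts on the Rag GTPases, rose to 22.4 ± 5.06 CPM from a WT mean of 15.8 ± 2.55 (log2 fold change 0.51, edgeR adjusted p = 0.0336), and Eif4ebp1, an inhibitor of translation that mTORC1 switches off, fell to 35.7 ± 3.83 CPM from a WT mean of 46.4 ± 8.41 (−0.38, adjusted p = 0.0362). The leucine sensor family member Sesn1 was at 118 ± 16.8 and 105 ± 26.2 CPM (adjusted p = 0.507). Of 25 tested genes of the ATF4 amino acid response, 1 passed (4%, against 4.91% of all tested genes). This was Gdf15, a stress-induced secreted factor, which fell to 0.963 ± 0.631 CPM from a WT mean of 4.298 ± 2.73 (log2 fold change −2.16, edgeR adjusted p = 0.00911). The other 24 did not pass, Atf4 itself among them at 66.0 ± 14.7 and 77.8 ± 17.8 CPM (adjusted p = 0.389).

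Several of these calls were close to the threshold. Removing 1 animal at a time ended the call for Slc16a10 in 12 of 16 removals (edgeR adjusted p up to 0.0878) and for Flcn in 9 (up to 0.0830). It ended the call for Eif4ebp1 in 8 (up to 0.0865), for Slc43a3 in 6 (up to 0.0750) and for Slc25a12 without WT replicate 4 (0.0532). For Slc16a10 these were WT replicates 1, 2, 4, 6, 7 and 8 and B3AR-Tg replicates 1, 2, 3, 4, 5 and 8. For Flcn these were WT replicates 2, 4, 5, 6 and 7 and B3AR-Tg replicates 1, 2, 3 and 5. For Eif4ebp1 these were WT replicates 4, 7 and 8 and B3AR-Tg replicates 4, 5, 6, 7 and 8. For Slc43a3 these were WT replicates 1, 2, 4 and 6 and B3AR-Tg replicates 5 and 8. With the other-cell covariate, 1 of the 10 list genes still passed, Slc7a1 (0.98). Of those that did not, the log2 fold change was −0.48 for Eif4ebp1, 0.49 for Slc16a10, 0.42 for Ppat, 0.65 for Gpt, −0.76 for Slc6a6 and −1.72 for Gdf15, each within 1.5 times its value without the covariate. It shrank by more than that for Flcn (0.27), Slc43a3 (−0.39) and Slc25a12 (0.19). Adjusted p-values of these 9 were 0.110 to 0.483. Slc38a3, Grin2c and Castor2, chosen with this difference known, passed in all 26 alternative fits of these same animals.

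Levels of different genes were compared per kilobase of the longest coding transcript in GENCODE M21. In WT the order was Glul (113 ± 23.3 CPM per kb), Slc38a2 (51.0 ± 15.2), Slc3a2 (7.10 ± 1.74), Slc38a3 (6.49 ± 0.998), Castor2 (0.947 ± 0.231), Slc38a1 (0.931 ± 0.337), Slc1a5 (0.711 ± 0.459), Slc7a5 (0.487 ± 0.234) and Grin2c (0.0960 ± 0.0657). Glul was above Slc38a2, and Slc38a2 above Slc3a2, in 8 of 8 animals. Slc3a2 was above Slc38a3 in 4 of 8 WT animals, and Castor2 above Slc38a1 in 4, so these neighbours did not differ beyond their spread. In B3AR-Tg, Slc38a3 (11.9 ± 1.91 CPM per kb) was above Slc3a2 (7.55 ± 1.98) in 8 of 8 animals, and Castor2 (1.93 ± 0.543) above Slc38a1 (1.04 ± 0.256) in 7. Grin2c (0.514 ± 0.142) was then above Slc7a5 (0.426 ± 0.172) in 5 of 8, which is within their spread, and Slc1a5 (0.180 ± 0.126) was the lowest.

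**Figure D3:**
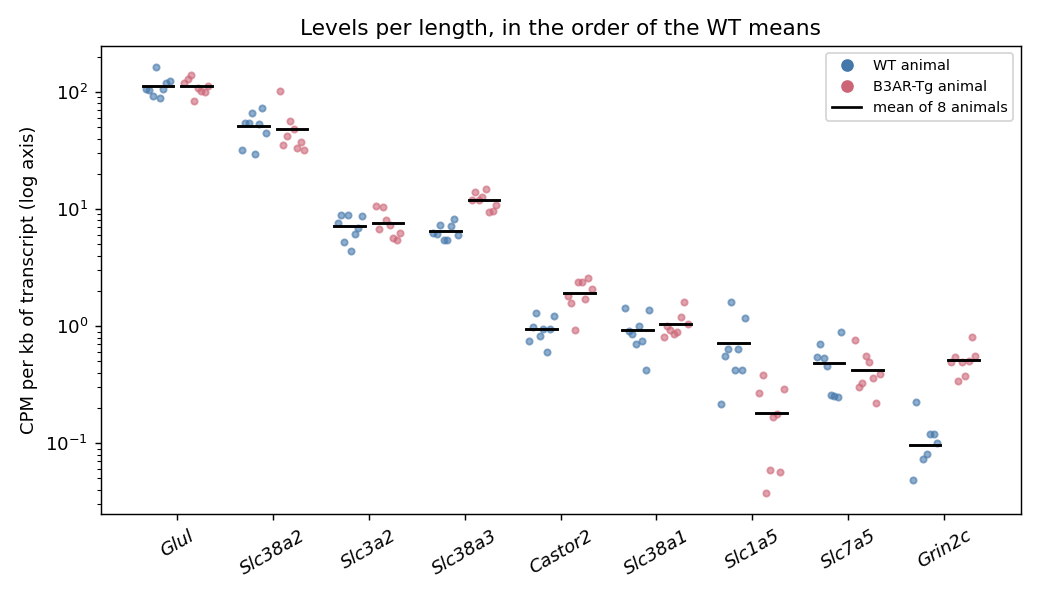
Level per kilobase of transcript (y axis, log scale) of each gene in every animal, WT in blue and B3AR-Tg in red, with the mean of 8 animals as a black bar and genes in the order of the WT means. The WT means span from 113 for Glul to 0.0960 for Grin2c, and 1 WT animal with 0 counts of Grin2c has no place on the log axis and is not drawn.

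Variation among animals of 1 genotype does not use the contrast that chose the genes. Load markers differed among the animals, with Nppa at 563 ± 556 CPM within WT, while load itself was not measured here. Each gene was therefore set against a load score, the mean z-score of the 5 load markers, within each genotype of 8 animals, giving 18 relations of which 0 passed after adjustment and 2 had an unadjusted p under 0.05. In WT, Slc3a2 had the highest Pearson r, 0.88 (exact permutation p = 0.00496, adjusted p = 0.0893), with a Spearman rho of 0.90 (exact permutation p = 0.00456) and an r of 0.81 without the 2 animals farthest from the median score. Glul followed with an r of 0.72 (exact permutation p = 0.0327, adjusted p = 0.294), a rho of 0.67 (exact permutation p = 0.0831) and 0.82 without those 2. Among B3AR-Tg animals Slc3a2 had an r of −0.12 (exact permutation p = 0.798) and Glul of 0.09 (exact permutation p = 0.829), but without the 2 farthest animals these were 0.52 and 0.81, and the difference between genotypes was not tested. For Slc38a3, r with load was −0.47 in WT (exact permutation p = 0.239, rho −0.55) and −0.41 among B3AR-Tg animals (exact permutation p = 0.321, rho −0.21), and −0.24 and −0.35 without 2 animals. Grin2c had an r of 0.56 in WT (exact permutation p = 0.142, rho 0.31) and 0.44 in B3AR-Tg (exact permutation p = 0.260, rho −0.05), the latter −0.32 without 2 animals. Castor2 had an r of 0.13 in WT (exact permutation p = 0.754, rho 0.02) and −0.05 in B3AR-Tg (exact permutation p = 0.884, rho −0.19), the latter −0.93 without 2 animals (exact permutation adjusted p = 0.225). Against the other-cell marker score 0 of 18 relations passed, and 0 Pearson r had an unadjusted p under 0.05 (r between −0.67 and 0.47, lowest adjusted p = 0.752). By Spearman rho, Slc38a2 in WT reached 0.76 (exact permutation p = 0.0368, adjusted p = 0.662). Grin2c in B3AR-Tg had an r of 0.24, and of 0.848 without the 2 animals farthest from the median score (exact permutation p = 0.0222, adjusted p = 0.400).

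**Figure D4:**
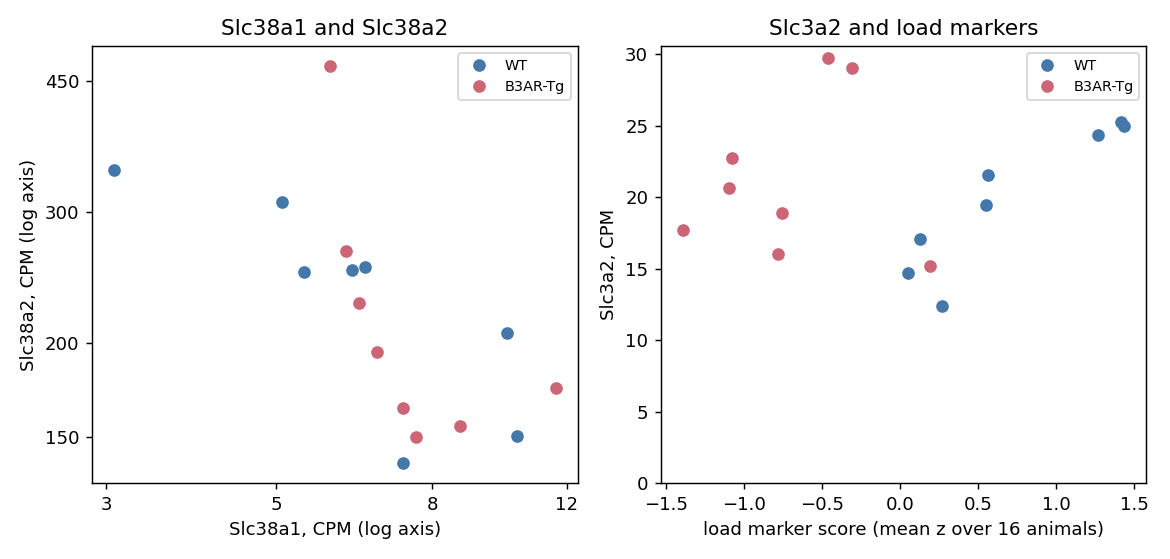
Left, Slc38a2 against Slc38a1 in CPM (both axes log); right, Slc3a2 in CPM against the load marker score (mean z-score over all 16 animals, whereas the correlations scaled it within a genotype), 1 point per animal, WT in blue and B3AR-Tg in red. Slc38a2 tends to be lower where Slc38a1 is higher within both genotypes (Spearman rho −0.83 and exact permutation adjusted p = 0.108 in each). Slc3a2 has r = 0.88 with the load score in WT (exact permutation adjusted p = 0.0893) and r = −0.12 in B3AR-Tg. These relations did not pass after adjustment.

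Pairs of the genes were compared in the same way, 7 pairs within each genotype, and 0 of 14 passed after adjustment while 3 had an unadjusted p under 0.05. Slc38a1 and Slc38a2 are neighbours on chromosome 15 in GENCODE M21. Their levels ran in opposite directions, with an r of −0.79 in WT (exact permutation p = 0.0182, adjusted p = 0.128; rho −0.83, exact permutation p = 0.0154) and −0.63 in B3AR-Tg (exact permutation p = 0.104, adjusted p = 0.247; rho −0.83, exact permutation p = 0.0154). Without the 2 animals farthest from the median of Slc38a1 these were −0.58 in WT, against −0.93 in B3AR-Tg (exact permutation adjusted p = 0.0389). The exchanger subunits Slc7a5 and Slc3a2 had an r of 0.61 in WT (exact permutation p = 0.110, rho 0.48) and 0.64 in B3AR-Tg (exact permutation p = 0.0904, rho 0.64), and the latter was 0.07 without 2 animals. In B3AR-Tg, Slc38a2 and Slc7a5 had an r of 0.83 (exact permutation p = 0.00776, adjusted p = 0.109, rho 0.60), which was 0.37 without 2 animals. Slc38a3 with Slc38a1 in B3AR-Tg had an r of −0.73 (exact permutation p = 0.0352, adjusted p = 0.165, rho −0.62), which was −0.19 without 2 animals. Leaving out the outermost animals also narrows the range, so whether these relations rest on them was not decided.

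The genes that varied most like 4 of these genes among animals of the same genotype were found from log2 CPM less the genotype mean over 16 animals, as a description with no test, since they are the highest of 8034 or 8035 correlations that share library scaling. For Slc38a3 they were Hhatl (r = 0.83), H4c3 (0.81) and Magi2 (0.81). For Castor2 they were Ankrd50 (0.89), Xpo7 (0.88) and Nol6 (0.86). For Grin2c they were Cdc14b (0.86), Zbtb22 (0.81) and Agtpbp1 (0.80), and for Slc7a5 they were Csrnp1 (0.83), Hnrnpa0 (0.80) and Zxdc (0.78). Csrnp1 was the 1 of these 12 genes that differed between genotypes (log2 fold change 0.65, edgeR adjusted p = 0.0362).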

How the data were processed

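RNA of plated ventricular myocytes from 16 mice was sequenced as paired-end stranded total RNA libraries after ribosomal RNA depletion, per the labels' protocols. The authors deposited whole-number counts per gene, 1 column per animal and not normalized. The submitters' processing notes name Salmon and GRCm39 with no role or version, so the counts may be rounded estimates. The annotation release, the strand setting and the handling of reads that match several genes are not given in the sources used here. GENCODE M21 (on GRCm38) gave transcript lengths and neighbours by gene ID, and because the builds differ its gene coordinates are not printed.

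Genes were filtered with filterByExpr (minimum count 10, total 15), scaled with TMM and tested with edgeR 4.0.16 in R 4.3.3 (genotype only, two-sided, adjusted p threshold 0.05). Standard errors were derived from the F statistic. Relations used log2 CPM (prior count 2) and exact permutation, and copies were searched with BLAST 2.17.0. Alternatives included limma 3.58.1 and DESeq2 1.42.0. Named genes were the 9, up to 6 per list past the threshold, and 11 others fixed in any case, of which not every one is reported here. The members and lists were chosen with earlier results of these data known. Same-numbered animals are different mice whose profiles did not deviate together, so the numbers were not taken as pairs.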

Additional observations from a re-analysis of the deposited data

Results flagged for a closer look

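For each of the 9 genes and each genotype, the outermost animals were set against the other 7 by Dixon's criterion at its 95% critical value, which compares the distance to the closest animal with the whole range of the group. On the CPM values 3 of 18 groups had such an animal, where chance alone would give 0.9, and on log2(CPM + 0.1) 0 of 18 had one. Slc38a2 in B3AR-Tg replicate 1 was at 471.5 CPM against 150 to 266 CPM in the others, a gap of 0.639 of the range (0.50 on the log2 scale). Glul in WT replicate 4 was at 454.5 CPM against 248 to 346 CPM, a gap of 0.527 (0.452 on the log2 scale). Grin2c in B3AR-Tg replicate 7 was at 3.97 CPM, from 51 counts, against 1.67 to 2.73 CPM, a gap of 0.539 (0.437 on the log2 scale). No cause was tested.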

How the results depend on the processing

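Slc38a3, Grin2c and Castor2 kept their direction and passed in each of 26 alternative fits (16 without 1 animal, 10 with another setting). The fits reuse the same animals and the genes were chosen with the difference known, so this adds no support for it. The log2 fold changes of these 3 genes ranged from 0.79 to 0.96, from 2.18 to 2.73 and from 0.94 to 1.26. The number of the 9 genes past the threshold was 3 or 4, the fourth being Slc1a5. It was −2.16 to −1.78 in the 16 fits that kept it and was dropped by the filter in the other 10. Among those 10 were the fits without WT replicate 2, 4 or 8. Of the fits without 1 animal, 13 kept it, so whether it was tested depended on which animals were in the fit. Over all genes, 537 passed as reported, 109 at an adjusted p under 0.01, 908 under 0.10, 804 with DESeq2, 706 with limma voom, 230 with the replicate block and 39 with the other-cell covariate, whose score differs with genotype. Without 1 animal the count was 272 to 675, the low values being WT replicate 4 (272), B3AR-Tg replicate 5 (277) and replicate 8 (345). Of the list genes 10 passed, and 2 under 0.01, 4 with the replicate block, 1 with the other-cell covariate and 6 to 10 without 1 animal (6 without WT replicate 4 or B3AR-Tg replicate 5). The block uses replicate numbers of different mice. Deviations of same-numbered animals correlated at −0.219 to 0.0935, 0 of 8 pairs over 0.1, and no WT animal correlated best with its own number, so the samples share only a number. Scaling by library size alone turned the split of calls from 222 higher and 315 lower to 346 and 165, and moved the median log2 fold change from 0.0060 to 0.084. Signs turned only for genes not past the threshold. With library size only, Slc38a2 was 0.0062, Glul 0.070, Glud1 0.066 and Grina 0.0097. Glul was 0.014 with no filter, 0.0063 with the replicate block and 0.014 with limma voom, and Glud1 0.0023 with no filter. With the other-cell covariate, Slc38a2 was 0.22, Slc7a5 0.054 and Slc1a4 0.22. Without 1 animal, Slc38a2 ranged from −0.32 to 0.016, Slc3a2 from −0.0023 to 0.14, Glul from −0.057 to 0.090 and Glud1 from −0.041 to 0.0095. Relations past the threshold numbered 0 under each setting except that 1 of 14 pairs passed without the 2 outermost animals, a setting in which r of Grin2c with load in B3AR-Tg was −0.32. With Nppa alone, that of Castor2 was 0.0044. The r furthest from 0 with Nppa alone was 0.87 in WT (Slc3a2) and −0.84 in B3AR-Tg (Slc7a5), each with an exact permutation adjusted p of 0.105. The cause of these changes was not tested. Depth limits what can be said of Slc1a5, Slc7a5, Grin2c in WT, Castor1, Slc7a8, Asns and the other NMDA receptor subunits.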

Other observations

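B3AR-Tg replicate 1 was the highest of its group for 3 of the amino acid carriers at once, an observation made after the values were seen and given with no test. It held 472 CPM of Slc38a2 against 150 to 266 CPM in the other 7, 2.68 CPM of Slc7a5 against 0.779 to 1.95, and 29.7 CPM of Slc3a2 against 15.2 to 29.0. The other transporters did not follow. Slc38a1 was the lowest of the group in this animal at 5.89 CPM. Slc38a3 at 37.4 CPM and Slc1a5 at 0.736 CPM lay inside the ranges of the group. Genes of the ATF4 amino acid response were mixed in this animal. Atf4, its transcription factor, was the highest of the group (103 CPM against 53.3 to 99.4), and Trib3 was too, on 6 counts. Asns, a classic target of ATF4, was at 0.268 CPM, rank 6 from the highest, Ddit3 at 7.03 CPM was rank 5 and Vldlr at 466 CPM was rank 6. Of the 25 tested genes of that list, 4 were highest in this animal and 7 in B3AR-Tg replicate 3, while 12.4% and 18.8% of all tested genes were highest in these 2 animals.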
